A study of Mus musculus with 220 samples.

Results

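Inflamed high endothelial cells (HEC) were compared with homeostatic blood endothelial cells (BEC) of mouse lymph nodes by single-cell RNA sequencing, gene by gene. The members were chosen by their titles, as all 65 columns of inflamed HEC and all 32 columns of BEC of the 220 cells deposited. The columns of inflamed cells 43 and 60 correlated at a Pearson r of 0.988, whereas the next closest pair of the series reached 0.701, and they were averaged as 1 cell, which left 64 inflamed HEC and 32 BEC among 219 cells. All cells came from C57BL/6 mice with no allele named. BEC and the 79 homeostatic HEC, which serve here as the middle point, came from untreated mice, and the inflamed HEC came from mice given 4% oxazolone, a contact sensitiser, on the skin and harvested on day 3. The labels name no age, sex or number of animals, no sort gate, no chip and no pooling. No BEC from treated mice is among the samples used here, so cell type and treatment cannot be told apart in inflamed HEC against BEC, nor can chip or harvest day from group.

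High endothelial venules are the postcapillary venules through which naive lymphocytes leave the blood in a lymph node. Their endothelium carries sulphated and fucosylated sialomucins that bind L-selectin on the rolling lymphocyte, presents the chemokine CCL21 that activates its integrins, and holds ICAM-1 for firm arrest. Most other blood endothelium of the node is capillary, with genes for lipid uptake and for responses to VEGF. Skin painting with oxazolone starts a contact allergy response in which the draining node enlarges and recruits more cells.

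Values are FPKM (fragments scaled by transcript length and by the total of mapped fragments), and each difference is one of mean log2(FPKM + 1) over cells. A difference on that scale understates the ratio of genes at low levels. With 1 sample per group there is no replicate check and no test, and the SD of a gene is its spread over cells. The depth was approximated from the values as 1350000, 2030000 and 3360000 fragments (lowest, median and highest cell) in BEC and 720000, 2190000 and 3670000 in inflamed HEC. The estimate is rough, since a median of 53.5% and 53.3% of the low values per cell lay within 0.1 of a whole fragment. The median BEC had 2870.5 detected genes (FPKM of 1 or more), the median inflamed HEC 3961 and the median homeostatic HEC 3842. The median gene past the detection limit lay 0.81 higher in inflamed HEC than in BEC, which the differences below do not correct for. That shift was 0.64 with a common sum per cell without Glycam1 and Ccl21a, 0.28 with median-ratio size factors, 0.16 with arithmetic means and 0.03 in 14 cells per group matched on detected genes. Markers bore on the labels as follows: Pecam1 and Cdh5 were detected in all cells of both groups, and all 7 high endothelial markers were higher in inflamed HEC. Of 11 blood endothelial markers past the detection limit, 2 (Kdr and Flt1) lay 2 or more below BEC and 0 above, with a median of -0.38. Markers of another cell type were carried by 3 of 64 inflamed HEC (B lymphocyte and leukocyte genes) and by 1 of 32 BEC (pericyte genes), and 12 of the 64 inflamed HEC against 0 of the 32 BEC counted as cycling. Prox1, the lymphatic master regulator, stood at a difference of -0.01. Of 8 lymphatic markers, 1 passed the detection limit, Ccl21a, which is also a high endothelial marker. Lyve1, another of them, lay above BEC and is described at the end.

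Among genes past the detection limit, inflamed HEC lay above BEC in many venous, complement and acute-phase genes and below it in many capillary and arterial genes. The detection limit, an FPKM of at least 1 in 50% of the BEC, homeostatic HEC or inflamed HEC, was passed by 3582 of the 24049 genes in the table. Of these, 554 lay 2 or more above BEC in inflamed HEC (15.5%) and 93 lay 2 or more below (2.6%). The same limits gave 434 genes above BEC (12.1%) and 96 below (2.68%) in homeostatic HEC. Every count of list members below is to be read beside these shares. A gene low in 1 group can pass the limit through another where it is high, so counts and medians over members past the limit favour such genes. Both differences use the same 32 BEC, so a gene with a chance high or low level in BEC moves in both.

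Each gene was placed by its pair of differences. A difference was called persisting where both HEC groups lay 2 or more on the same side of BEC, which held for 288 genes above (8.04%) and 72 below (2.01%). It was called closed where homeostatic HEC lay 2 or more away and inflamed HEC within 1 of BEC, which held for 31 genes above (0.865%) and 8 below (0.223%). It was called opened where inflamed HEC lay 2 or more away and homeostatic HEC within 1, which held for 74 genes above (2.07%) and 6 below (0.168%). No gene lay 2 or more on opposite sides of BEC. Of the 434 genes above BEC in homeostatic HEC, 288 persisted, 115 lay 1 to 2 above BEC in inflamed HEC and 31 closed. Of the 96 below, 72 persisted, 16 lay 1 to 2 below and 8 closed. Of the 554 genes above BEC in inflamed HEC, 192 already lay 1 to 2 above it in homeostatic HEC and 74 had opened.

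**Figure D1:**
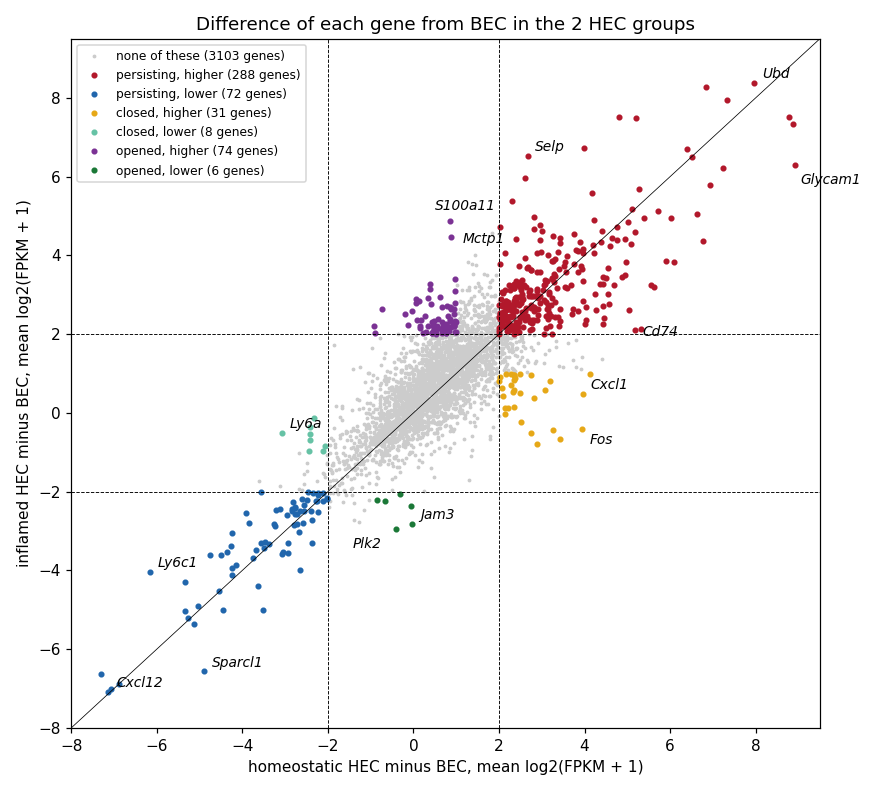
Each point is 1 of 3582 genes, with the homeostatic HEC minus BEC difference on the x axis and the inflamed HEC minus BEC difference on the y axis, both in mean log2(FPKM + 1). Dashed lines mark 2 and -2 and the solid line marks equal differences. The persisting genes (288 above, 72 below) run along the diagonal, the 31 and 8 closed genes lie beside the zero of the y axis, and the 74 and 6 opened genes beside the zero of the x axis.

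Over 14 other ways of processing the data, 33 of the 288 persisting genes above BEC and 25 of the 72 below stayed in their group every time, and 282 and 72 kept the sign of their difference from BEC every time. No closed or opened gene stayed in its group every time: the median was 8 of 14 ways for opened and for closed genes above BEC, against 10 and 13 for persisting genes above and below. The 14 include the ways that changed only the detection limit, which could not move a gene out of its group or turn its sign. Of the 74 opened genes above BEC, 70 kept the sign of their difference from BEC and 70 that of their difference from homeostatic HEC in all 14. The share of genes above BEC among those past either limit was 85.6%, and it was 68.3% with median-ratio size factors, 70% with arithmetic means, 55.6% in the matched cells, and 51.7% after centring on the median gene.

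The gene furthest above BEC was Ubd, which encodes the ubiquitin-like modifier FAT10 and lies at chr17:37193892-37196095 (GRCm38, + strand). Its lowest, median and highest FPKM were 3.32, 10.7 and 228.9 in BEC and 308.5, 6455 and 24186 in inflamed HEC. All 64 inflamed cells lay above the highest BEC, and the difference was 8.39 against 7.97 in homeostatic HEC. Lrg1, a secreted leucine-rich glycoprotein of venules and of the acute phase, followed at 8.28. It ran from 492.9 through a median of 2881 to 11397 in inflamed HEC and from 0 through 4.61 to 2047 in BEC. Of 64 inflamed cells, 45 exceeded the highest BEC. Ackr1, the atypical chemokine receptor that carries chemokines across venular endothelium, had medians of 2.52 in BEC and 1358 in inflamed HEC and a difference of 7.96. For Ackr1, 48 of 64 inflamed cells exceeded the highest BEC. Pglyrp1, a secreted peptidoglycan-binding protein, and Ehd3, an endosomal ATPase, both stood at 7.51. Serpinb1a, an inhibitor of neutrophil proteases, stood at 6.73, Spint2, an inhibitor of serine proteases, at 6.50 and Serpina1e at 6.23. Serpina1e is one of several near-identical antitrypsin genes, so the assignment of its reads is uncertain, as it is for Ccl21a.

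Genes for several steps of making the L-selectin ligand were higher in inflamed HEC. Of 18 list members, 13 passed the detection limit, and 5 of these lay 2 or more above BEC and 1 below, with a list median of 1.19. Chst4, the sulphotransferase that makes the sulphated epitope of high endothelial venules, was detected in 3 of 32 BEC and 62 of 64 inflamed HEC. Its medians were 0.53 and 315.3, 62 inflamed cells exceeded the highest BEC at 1.37, and the difference of 6.71 was close to the 6.39 of homeostatic HEC. Fut7, the fucosyltransferase of the same ligand, had medians of 0.37 and 122.2 and a difference of 5.06. Gcnt1, which makes the core 2 branch, had medians of 0.22 and 32.1 and a difference of 3.84, and B3gnt3, which extends core 1, a difference of 3.37. Podxl, a sialomucin of endothelium in general, was the member below BEC, at -3.05, and at -1.88 in the cells matched on detected genes. Cd34, a sialomucin of both cell types, lay at 0.46.

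Glycam1, the secreted sialomucin of high endothelial venules (chr15:103562759-103565081, GRCm38, - strand), had the largest loss of distance among the markers. Its FPKM ran from 32.8 through 66.2 to 594.2 in BEC, from 207.2 through 6349.5 to 115345 in inflamed HEC, and had a median of 59091 in homeostatic HEC. The difference was 6.29 in inflamed and 8.91 in homeostatic HEC, and 58 of 64 inflamed cells still exceeded the highest BEC. Ccl21a, the chemokine at chr4:42772860-42773993 on the - strand, showed the same order with medians of 60.1 in BEC, 21032 in inflamed HEC and 57488 in homeostatic HEC. All 32 BEC held Glycam1 and Ccl21a reads, the latter at 14.8 or more, in a narrow range (SD 0.89 and 0.70 on the log2 scale, against 2.54 and 2.88 in inflamed HEC). The source of these reads in BEC was not tested. The pair made up 4.06% of summed FPKM in the median inflamed HEC, 20.8% in the median homeostatic HEC and 0.03% in the median BEC. With a common sum per cell without these 2 genes, 54 genes opened and 257 persisted above BEC.

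Adhesion molecules that capture and arrest leukocytes lay above BEC at several steps. Selp, which encodes P-selectin and lies at chr1:164115264-164150026 on the + strand, had lowest, median and highest FPKM of 0, 0.27 and 1.35 in BEC and 2.1, 201.2 and 1943 in inflamed HEC. The groups did not overlap, since all 64 inflamed cells exceeded the highest BEC, whereas the median of homeostatic HEC was 3.43. Its difference from BEC was 6.53 in inflamed and 2.67 in homeostatic HEC. Sele, which encodes E-selectin (chr1:164048234-164057677, + strand), reached an FPKM of 1 in 0 of 32 BEC, which allows a share of up to 10.9% (exact 95% interval), in 20 of 79 homeostatic HEC and in 33 of 64 inflamed HEC. Its difference was 2.63 against 0.88, which placed it among the opened genes. Icam1, the integrin ligand of firm arrest, persisted at 4.39, with medians of 0.39 in BEC and 107.9 in inflamed HEC. Vcam1 lay at 1.91. Cd63, a tetraspanin that helps to hold P-selectin at the cell surface, stood at 4.94. Of the 13 members of the adhesion and junction list past the limit, 5 lay 2 or more above BEC and 1 below, and the junction genes Pecam1, Cdh5 and Esam lay between -0.38 and 0.59.

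**Figure D2:**
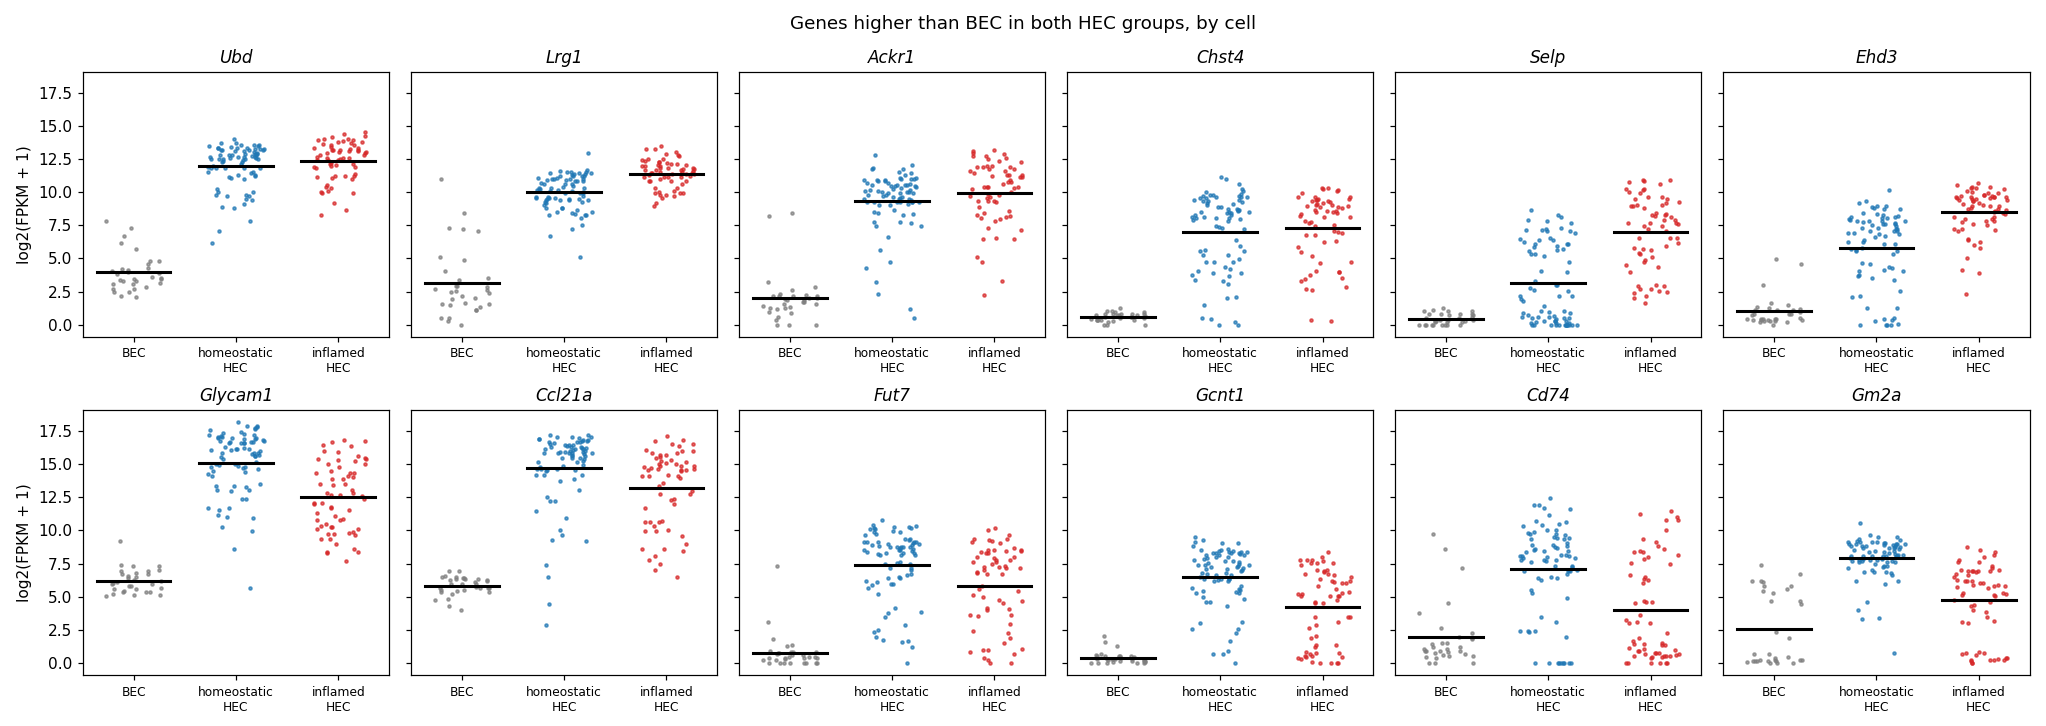
Points are single cells, with log2(FPKM + 1) on the y axis for 12 genes that lay 2 or more above BEC in both HEC groups, and black bars are the means of 32 BEC, 79 homeostatic HEC and 64 inflamed HEC. In the top row the inflamed mean is at or above the homeostatic mean, with Selp at 6.53 against 2.67 above BEC, and in the bottom row it lies between BEC and homeostatic HEC, with Glycam1 at 6.29 against 8.91.

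By list median, venous genes lay furthest above BEC after complement and acute-phase genes. Of 12 venous members past the limit, 8 lay 2 or more above BEC and 0 below, with a median of 3.78 beside 0.81 over all genes past it. Of all 15 venous members 8 lay above, with a median of 2.75. The count above was 8 in matched cells and 6 with arithmetic means. It was 8 with 1 below under size factors and 7 with 1 below after centring. Nr2f2, the transcription factor of vein identity, had medians of 0.48 in BEC and 72.1 in inflamed HEC and a difference of 4.45, and Vwf, the von Willebrand factor gene, of 2.75. Il6st, the shared receptor chain of the interleukin-6 family, stood at 4.24 and Il1r1, the interleukin-1 receptor, at 3.32. Complement and acute-phase genes past the limit were above BEC in 8 of 9 cases, and 6 of 9 in matched cells. Of all 21 members of that list, 9 lay 2 or more above BEC, and the median over the 21 was 0.85. The C1 proteases C1s1 and C1ra stood at 4.60 and 3.57, the factor B gene Cfb at 5.17 and the complement regulator Cd55 at 3.27. In homeostatic HEC, 8 members of each list lay 2 or more above BEC. The lists share Lrg1, Il6st and Il1r1.

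Within the 288 persisting genes above BEC, 26 lay 1 or more higher in inflamed than in homeostatic HEC, 40 lay 1 or more lower and 222 lay within 1. The widened set held Selp, Mustn1 at 5.97 against 2.60, Ch25h, the cholesterol 25-hydroxylase, at 5.37 against 2.30, Serpinb1a at 6.73 against 3.98 and Ehd3 at 7.51 against 4.81. The transporter Slco3a1 stood at 4.73 against 2.02, and Xbp1, the transcription factor of secretory cells, at 4.50 against 3.26. For Ehd3, 61 of 64 inflamed cells exceeded the highest BEC at 30.8, with a median of 502 (homeostatic median 115.6). The narrowed set held Glycam1, Fut7, Gcnt1 and Ccl21a, and among others Cd74, Gm2a and Tmed3. Cd74, the invariant chain of MHC class II, stood at 2.10 against 5.17, with medians of 1.06 in BEC, 5.43 in inflamed HEC and 256.1 in homeostatic HEC. It was detected in 43 of 64 inflamed cells and in 17 of 32 BEC, so the groups overlapped widely. B lymphocytes also express Cd74, and their markers were carried by 3 of 64 inflamed HEC, 6 of 79 homeostatic HEC and 0 of 32 BEC, whose part in this difference was not tested. Gm2a, the GM2 ganglioside activator of lysosomes, stood at 2.14 against 5.33, and Tmed3, a cargo receptor of the early secretory route, at 2.62 against 5.05. Both Cd74 and Gm2a fell short of 2 in the matched cells, at 0.98 and 1.65.

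Other chemokines fell on both sides. Of 7 chemokine genes past the limit, Ccl21a, Cxcl9 and Cxcl10 lay 2 or more above BEC and Cxcl12 below, with 2 above in matched cells and 1 under size factors. Cxcl9, a ligand of CXCR3 on effector T cells, opened at 2.35 against 0.17 and was detected in 44 of 64 inflamed HEC and 7 of 32 BEC. Cxcl10, with the same receptor, stood at 2.19 against 1.36, and 9 inflamed cells exceeded the highest BEC. Cxcl12, the ligand of CXCR4, was the gene furthest below BEC. It lies at chr6:117168535-117181367 on the + strand, and its lowest, median and highest FPKM were 3.37, 476.3 and 2604 in BEC and 0, 0.40 and 378.4 in inflamed HEC. The difference was -7.08 against -7.13 in homeostatic HEC. It was detected in 24 of 64 inflamed cells and in all 32 BEC, all of which lay above the inflamed median.

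Capillary and lipid-handling genes were lower in inflamed HEC, about as far as in homeostatic HEC. Of 11 members past the limit, 6 lay 2 or more below BEC and 0 above, with a median of -2.07. The count stayed between 6 and 7 under size factors, centring, arithmetic means and matched cells. Over all 19 members the median was -0.56. Gpihbp1 anchors lipoprotein lipase in capillaries (chr15:75596628-75599481, + strand). Its medians were 987.5 in BEC and 0 in inflamed HEC, and its difference was -7.02. Rbp7, a retinol-binding protein, stood at -6.89, Rgcc at -6.63 and the fatty acid transporter Cd36 at -5.02. Ly6c1, a surface protein of capillary endothelium at chr15:75044018-75048830 on the - strand, was the capillary gene with the largest return towards BEC. Its FPKM ran from 1127 through 5699 to 16631 in BEC and from 3.00 through 731 to 14155 in inflamed HEC. The difference was -4.03 against -6.15, and 39 of 64 inflamed cells lay below the lowest BEC. Ly6c1 and Ly6c2 are similar in sequence, so reads may be shared between them.

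The 5 capillary genes that persisted below BEC (Cd36, Gpihbp1, Rgcc, Rbp7 and Ly6c1) were not evenly low. At least 4 of the 5 reached an FPKM of 10 in 24 of 32 BEC, in 4 of 64 inflamed HEC and in 3 of 79 homeostatic HEC. The 5 were chosen for lying below BEC in both HEC groups, so the larger share in BEC follows from that choice. The 4 inflamed cells also held high endothelial transcripts: in cell 32, Gpihbp1 stood at 1120, Ly6c1 at 14155 and Glycam1 at 4272, and in cell 7 Cd36 stood at 7242 and Ubd at 588.7. This description was made after the values were seen, and whether such a library held 1 cell or more was not tested.

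Arterial and VEGF-pathway genes followed the capillary genes. Of 9 arterial and Notch genes past the limit, 5 lay 2 or more below BEC and 0 above. The median was -1.19 over all 19 members of that list. Efnb2, the arterial ephrin, had medians of 55.2 in BEC and 0 in inflamed HEC and a difference of -4.40, and the connexin gene Gja4 one of -2.80. The VEGF receptor genes Flt1 and Kdr stood at -2.47 and -2.39, and the coreceptor Nrp1 at -2.59. Esm1, a proteoglycan of tip cells, stood at -3.48 and was detected in 16 of 32 BEC and 4 of 64 inflamed HEC. Of 12 VEGF, Tie and angiogenic genes past the limit, 4 lay 2 or more below and 0 above, and the Tie receptors Tek and Tie1 lay at -0.40 and -0.47. This list shares Nrp1, Dll4 and Cxcr4 with the arterial list, and Nrp1 counts as below BEC in both. Thbd, the anticoagulant thrombomodulin, stood at -3.60 against -4.76, whereas Tfpi, the tissue factor pathway inhibitor, stood at 3.45, Procr, the protein C receptor, at 2.42 and Thbs1, the thrombospondin gene, at 3.53. Ednrb, the endothelin B receptor, stood at -4.91 and Sparcl1, a matrix protein, at -6.56. Others among the 12 genes furthest below BEC were Itm2a at -5.35, Pcp4l1 at -5.20, Timp3, an inhibitor of metalloproteases, at -5.00 and Dhrs3, a retinaldehyde reductase, at -5.00.

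**Figure D3:**
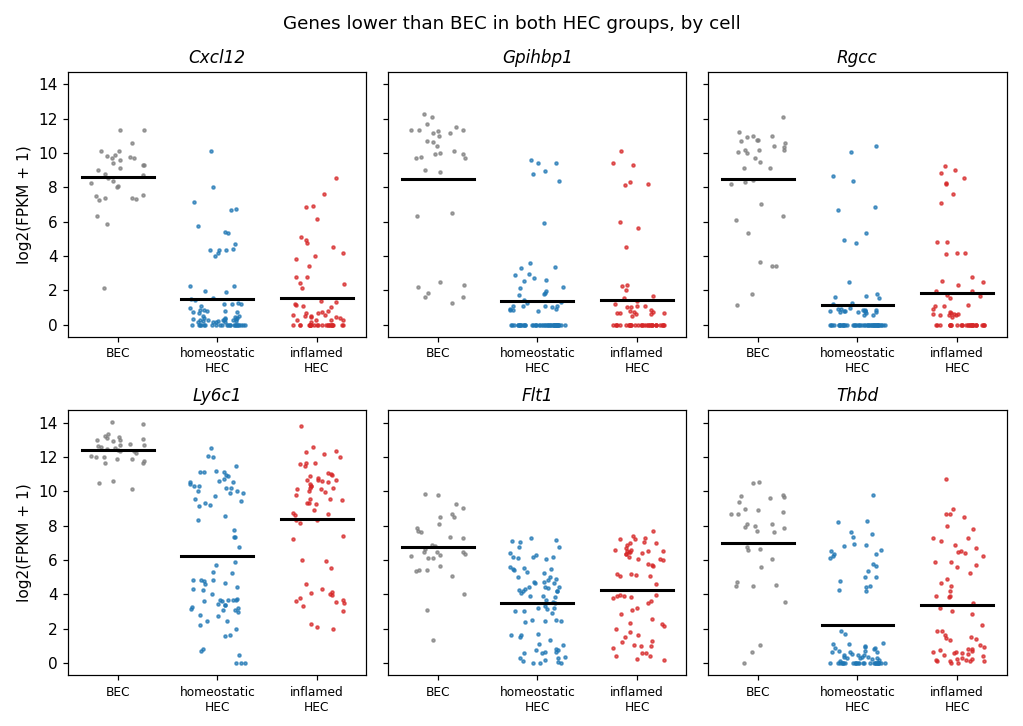
Points are single cells, with log2(FPKM + 1) on the y axis for 6 genes that lay 2 or more below BEC in both HEC groups, and black bars are the means of 32 BEC, 79 homeostatic HEC and 64 inflamed HEC. Cxcl12, Gpihbp1 and Rgcc have similar means in the 2 HEC groups, while Ly6c1 stands at -4.03 in inflamed and -6.15 in homeostatic HEC.

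Lysophospholipid and sphingosine 1-phosphate genes lay on both sides of BEC. Enpp2, which encodes autotaxin and makes lysophosphatidic acid, stood at 3.03 against 4.25, with medians of 259.2 in BEC and 958.1 in inflamed HEC. It lay at 1.39 in the matched cells. The phosphatases that break these lipids down were lower, Ppap2b at -3.39 and Ppap2a at -2.53, and so were the receptor genes Lpar6 at -2.21 and Lpar4 at -1.61. Spns2, the exporter of sphingosine 1-phosphate, stood at 2.72 and the receptor gene S1pr1 at 1.12. Of 7 members past the limit, 2 lay 2 or more above BEC and 3 below, with 1 above in matched cells and 0 with arithmetic means. The shares over all genes were 15.5% above and 2.6% below.

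The differences that closed from above were led by immediate-early genes. Fos, a component of the AP-1 factor at chr12:85473890-85477273 on the + strand, showed a median of 2.05 in BEC, of 402.7 in homeostatic HEC and of 1.25 in inflamed HEC. Its difference from BEC was -0.40 in inflamed and 3.93 in homeostatic HEC. Fos ran from 0 to 1851 over inflamed cells and from 0.25 to 4494 over BEC, so the ranges overlapped almost whole. Egr1, another immediate-early factor, stood at -0.65 against 3.42, Zfp36, which destabilises cytokine mRNAs, at -0.79 against 2.88 and Ppp1r15a, a stress-induced phosphatase subunit, at -0.43 against 3.26. Of 14 genes known to respond to tissue dissociation and heat shock, 11 passed the limit, 1 lay 2 or more above BEC in inflamed HEC and 5 did in homeostatic HEC. Their summed FPKM per cell ran from 47.9 through a median of 679.5 to 9470 in BEC, from 23.6 through 514.9 to 6665 in inflamed HEC and from 61.5 through 1892 to 7679 in homeostatic HEC. Fos, Egr1, Zfp36 and Junb are among them, and the part of dissociation in these differences was not tested. The neutrophil chemokine gene Cxcl1 stood at 0.48 against 3.97 and was detected in 16 of 64 inflamed HEC, 53 of 79 homeostatic HEC and 6 of 32 BEC. Sult1a1, a sulphotransferase of small phenols, stood at 0.98 against 4.12, and Ptgds, the prostaglandin D synthase, at 0.58 against 3.07. Kctd12 stood at -0.52 against 2.76, Chp2 at 0.37 against 2.82, Cd24a at -0.22 against 2.51, Gpc1, a heparan sulphate proteoglycan, at 0.81 against 3.20 and Sdc4, another, at -0.04 against 2.13.

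Differences of 8 genes closed from below. Which genes did so depended on the processing: of the 8, 1 recurred with size factors, 1 after centring, 2 in matched cells and 0 with arithmetic means. Ly6a, the surface protein Sca-1 (chr15:74994877-74998031, - strand), ran from 862.2 through 3230 to 11060 in BEC and from 50.3 through 3184 to 11678 in inflamed HEC. The medians were close, 9 inflamed cells lay below the lowest BEC, and the difference was -0.51 against -3.07 in homeostatic HEC. The basement membrane collagens Col4a1 and Col4a2 stood at -0.68 against -2.42 and at -0.13 against -2.32. Sparc, a collagen-binding matrix protein, stood at -0.35 against -2.41, with medians of 1492 in BEC and 1028 in inflamed HEC. Ifit3, an interferon-induced protein, stood at -0.53 against -2.42. Picalm, a clathrin adaptor, stood at -0.98 against -2.44, Fam13c at -0.85 against -2.06 and Plekha1 at -0.98 against -2.11. Of 13 basement membrane and matrix genes past the limit, 2 lay 2 or more above BEC and 1 below in inflamed HEC, and 0 above and 5 below in homeostatic HEC. In the matched cells 0 lay above and 1 below. The shares over all genes were 15.5% above and 2.6% below in inflamed HEC, and 12.1% and 2.68% in homeostatic HEC. The 2 of 13 above BEC are thus near the share of all genes.

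The differences that opened above BEC were led by S100a11, a calcium-binding protein at chr3:93520488-93526287 on the + strand. Its lowest, median and highest FPKM were 0, 51.7 and 574.1 in BEC, 0, 91.4 and 847.2 in homeostatic HEC and 129.4, 658.6 and 3140 in inflamed HEC. Of 64 inflamed cells, 40 exceeded the highest BEC, and the difference was 4.87 against 0.85. Mctp1, a calcium-binding membrane protein at chr13:76384535-77031810 on the + strand, was detected in 0 of 32 BEC, 19 of 79 homeostatic HEC and 56 of 64 inflamed HEC. Its difference was 4.46 against 0.89, with 58 inflamed cells above the highest BEC at 0.57. Both stayed at 3.30 in the cells matched on detected genes. Vcan, the proteoglycan versican, was detected in 0 of 32 BEC, 1 of 79 homeostatic HEC and 38 of 64 inflamed HEC, and stood at 2.80 against 0.05.

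S100 proteins and annexins, which bind calcium, held 3 opened genes. Of 13 S100 and annexin genes past the limit, 5 lay 2 or more above BEC in inflamed HEC and 1 did in homeostatic HEC. Anxa1, the anti-inflammatory annexin (chr19:20373428-20390944, - strand), had a median of 71.5 in BEC, one of 58.3 in homeostatic HEC and one of 474.1 in inflamed HEC, and stood at 2.89 against 0.06, but at 0.47 in the matched cells. Anxa7 stood at 2.39 against 0.85 and S100a10, the annexin A2 partner, at 3.76 against 1.47. The list count was 3 under size factors and in matched cells and 1 with arithmetic means.

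Further opened genes had varied roles. Col18a1 and Col15a1, collagens of the vascular basement membrane zone, stood at 3.15 against 0.39 and at 2.04 against 0.77, and Col18a1 at 0.81 in the matched cells. Mmp14, a membrane-bound matrix protease, stood at 2.30 against 0.44. Slco2a1, the prostaglandin transporter, was detected in 48 of 64 inflamed HEC and 4 of 32 BEC and stood at 3.27 against 0.39. Entpd1, the CD39 enzyme that breaks down extracellular ATP, stood at 3.09 against 0.98 and Insr, the insulin receptor, at 2.63 against -0.73. Glo1, the glyoxalase gene, stood at 2.52 against -0.20, Emp1 at 2.20 against -0.93 and Nudt4 at 2.02 against -0.89. Jak2, a kinase of cytokine receptors, stood at 2.07 against 0.46. Lgals1, the galectin-1 gene, was detected in 2 of 32 BEC and 37 of 64 inflamed HEC and stood at 2.45 against 0.80. Tubb6, a tubulin gene, stood at 2.84 against 0.14, and without the 12 cycling inflamed cells 64 genes opened above BEC in place of 74, 56 of them shared. Litaf stood at 2.94 against 0.62 and at -0.14 on the log2 ratio of arithmetic means, and 3 BEC exceeded the highest inflamed cell.

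Differences of 6 genes opened below BEC. Jam3, a junctional adhesion molecule of lymph node endothelium (chr9:27097384-27155421, - strand), had a median of 122.7 in BEC, one of 91.4 in homeostatic HEC and one of 1.75 in inflamed HEC. It was detected in 23 of 32 BEC, 70 of 79 homeostatic HEC and 38 of 64 inflamed HEC, and its difference was -2.81 against -0.03. Among the other ways of processing, Jam3 kept this place in 13 of 14, which include the changes of detection limit that could not move it. It stood at -5.36 in the matched cells. Plk2, a stress-responsive kinase, stood at -2.96 against -0.41, and Pde2a, which breaks down cyclic nucleotides, at -2.37 against -0.05. Cd300lg, the endothelial receptor nepmucin, which binds L-selectin, stood at -2.07 against -0.32, with medians of 199.1 in BEC and 42.2 in inflamed HEC. Ppp1r16b, a phosphatase regulator of endothelium, stood at -2.25 and the tetraspanin Tspan13 at -2.21. Tspan13 lay at -0.46 in the matched cells.

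**Figure D4:**
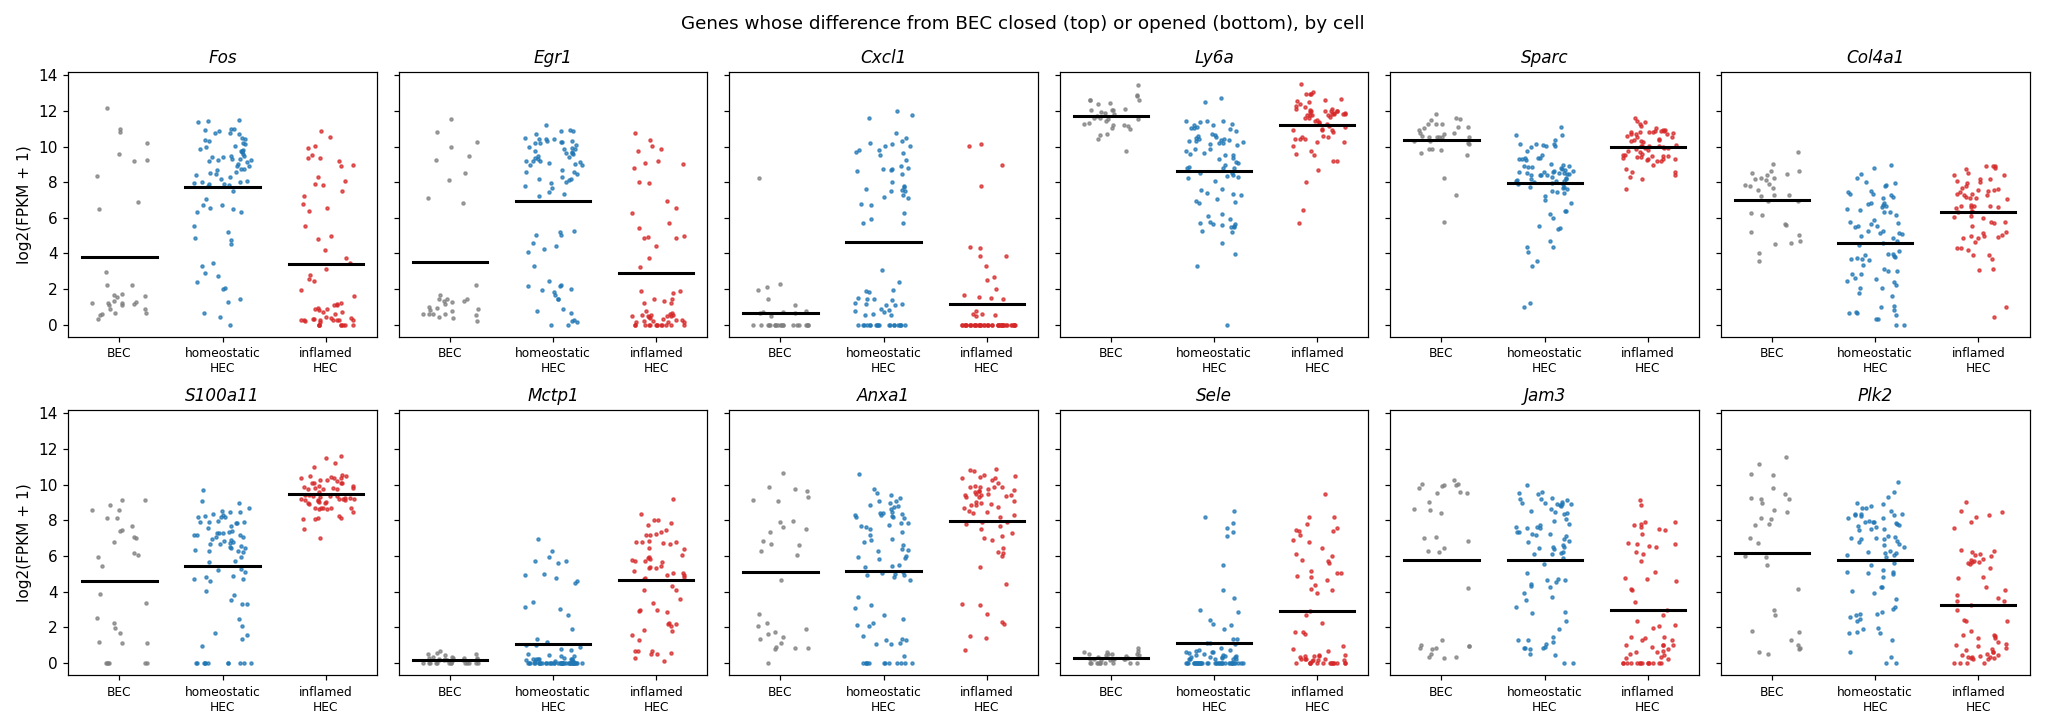
Points are single cells, with log2(FPKM + 1) on the y axis, and black bars are the means of 32 BEC, 79 homeostatic HEC and 64 inflamed HEC. The top row shows 6 genes whose difference from BEC closed, such as Fos at -0.40 in inflamed and 3.93 in homeostatic HEC, and the bottom row 6 genes whose difference opened, such as S100a11 at 4.87 against 0.85 and Jam3 at -2.81 against -0.03.

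Interferon and NF-kB genes were examined because both pathways act on inflamed endothelium. Of 18 type I interferon response genes past the limit, 1 lay 2 or more above BEC (Zbp1, a nucleic acid sensor, at 2.20 against 0.16) and 1 below (Rsad2, an antiviral enzyme, at -4.52 against -4.55). The list median was 0.84 in inflamed HEC, beside 0.81 over all genes, and -0.59 in homeostatic HEC, beside 0.57. Isg15 stood at 1.06 against -0.62 and Irf7, the amplifying factor, at 0.12 against -1.66. Of 13 interferon-gamma induced genes past the limit, 2 lay 2 or more above BEC, the GTPase genes Tgtp1 at 3.85 and Irgm1 at 2.22, with a list median of 1.70 against 0.59. The 2 of 13 stand beside 15.5% over all genes, and the count was 1 under size factors, centring and arithmetic means, and 1 above with 1 below in the matched cells. Tgtp1 has a near-identical neighbour, Tgtp2, so its reads are uncertain. Of 11 lymphotoxin receptor and NF-kB genes past the limit, 3 lay 2 or more above BEC in inflamed HEC (15.5% over all genes) and 7 in homeostatic HEC (12.1%). Those in inflamed HEC were Ubd, Birc2, a regulator of the noncanonical pathway, at 3.13, and the receptor gene Tnfrsf1a at 2.95, and Ltbr, the lymphotoxin beta receptor, stood at 1.64. The inhibitor genes Nfkbia and Nfkbiz stood at 1.11 against 2.32 and at 1.43 against 3.93, and Tnfaip3, which ends NF-kB signalling, closed at 0.99 against 2.16.

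Promoters from RefSeq (GRCm38.p6, the 250 bases before each start) were searched for an interferon-stimulated core, GAAANNGAA, and a kappaB core, GGANTTTCC, on both strands. No stretch can match both cores in full, and a gene counted where any of its promoters held a match. Of 3582 genes, 2694 had a promoter in the table, and 8.57% of these held the interferon-stimulated core and 1.71% the kappaB core, beside 7.93% and 1.35% of all 16779 genes of the table with a promoter. The interferon-stimulated core was found in 9.35% of 214 persisting genes above BEC, 15.4% of 52 below, 8.33% of 24 closed genes above, 2 of 7 closed below, 9.09% of 55 opened above and 1 of 4 opened below. Persisting genes below had a mean of 1.48 promoters per gene and genes opened below 2.25, against 1.29 over all genes past the limit. More sequence per gene was thus searched in those groups. The kappaB core was found in 9 of 214 persisting genes above, 0 of 52 below, 2 of 24 closed above, 0 of 7 closed below, 1 of 55 opened above and 0 of 4 opened below. A match is a description of letters and no evidence of a bound factor. The promoters below, 5′ to 3′ on the strand of the gene with matches in capitals, show an interferon gene that closed, Ifit3 (chr19:34583279-34583528, + strand), and one that stayed below BEC, Rsad2 (chr12:26456453-26456702, - strand). They also show a kappaB match in a chemokine gene that closed, Cxcl1 (chr5:90890995-90891244, + strand), and in an adhesion gene that persisted, Icam1 (chr9:21015690-21015939, + strand).
Ifit3: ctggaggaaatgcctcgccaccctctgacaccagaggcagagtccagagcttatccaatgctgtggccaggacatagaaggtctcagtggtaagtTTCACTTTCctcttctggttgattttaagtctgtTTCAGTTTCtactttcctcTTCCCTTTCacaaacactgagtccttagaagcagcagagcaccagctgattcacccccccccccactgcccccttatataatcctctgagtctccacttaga
Rsad2: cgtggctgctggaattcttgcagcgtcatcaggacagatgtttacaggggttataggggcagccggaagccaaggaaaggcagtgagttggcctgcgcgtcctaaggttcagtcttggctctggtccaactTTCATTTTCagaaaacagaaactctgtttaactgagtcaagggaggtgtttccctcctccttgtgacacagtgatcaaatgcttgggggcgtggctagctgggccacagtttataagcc
Cxcl1: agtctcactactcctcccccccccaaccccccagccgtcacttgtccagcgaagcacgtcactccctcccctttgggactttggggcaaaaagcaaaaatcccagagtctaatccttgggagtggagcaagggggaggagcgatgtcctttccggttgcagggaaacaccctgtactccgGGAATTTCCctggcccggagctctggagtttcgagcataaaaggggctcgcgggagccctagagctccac
Icam1: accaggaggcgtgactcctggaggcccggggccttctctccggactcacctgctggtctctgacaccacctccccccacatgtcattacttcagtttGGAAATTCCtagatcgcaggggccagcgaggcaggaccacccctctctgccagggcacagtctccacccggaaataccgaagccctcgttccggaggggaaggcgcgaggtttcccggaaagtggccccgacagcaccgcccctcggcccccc

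The Ifit3 promoter held 3 matches to the interferon-stimulated core, which begin 155, 121 and 102 bases before the start, and that of Rsad2 held 1, at 119 bases. Rsad2 was detected in 24 of 32 BEC and 9 of 64 inflamed HEC and Ifit3 in 24 of 32 and 43 of 64, so these genes with the same core stood at different places. The kappaB match of Cxcl1 begins 70 bases and that of Icam1 153 bases before the start. Cxcl1 was detected in 16 of 64 inflamed HEC and Icam1 in 54 of 64.

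Of 24 endoplasmic reticulum genes past the limit, 9 lay 2 or more above BEC (7 under size factors, 5 in matched cells and 1 with arithmetic means), as 9 did in homeostatic HEC. The shares over all genes were 15.5% in inflamed HEC and 12.1% in homeostatic HEC. P4hb, a disulphide isomerase, stood at 3.64, the translocon-associated Ssr2 at 3.68 and the translocon subunit Sec61b at 3.41. Of 11 glycolysis genes past the limit, 6 lay 2 or more above BEC in inflamed HEC and 2 in homeostatic HEC, led by Pkm at 3.26, Gapdh at 2.65 and Pgam1 at 2.63, while Pgk1 and Ldha opened at 2.05 and 2.24. The glycolysis count was 2 under size factors, 5 in matched cells, with 1 below, and 0 with arithmetic means. Eno1, another glycolytic enzyme gene, stood at -1.32. Of 12 lysosomal genes past the limit, 6 lay 2 or more above BEC (5 in matched cells and 3 under size factors), among them the cathepsin genes Ctsl at 3.25, Ctsb at 2.49 and Ctsd at 2.01 and the protease Lgmn at 3.70. Of 13 ribosome biogenesis and polyamine genes past the limit, 3 did, as under size factors, centring, arithmetic means and in matched cells: Eif5a at 4.09, Npm1 at 3.83 and Odc1, the first enzyme of polyamine synthesis, at 3.46.

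The next counts stand beside 15.5% above BEC and 2.6% below over all genes. Of 19 MHC class I and immunoproteasome genes past the limit, 1 lay 2 or more above BEC, Psmb8 at 2.01, with a list median of 0.88, and 0 did under size factors. Of 19 oxidative phosphorylation genes past the limit 4 did, and 0 under size factors. Of 3 MHC class II genes past the limit 1 did, Cd74. Of 5 cell cycle genes past the limit 1 did, Ccnd1 at 3.52, which was at 3.28 in homeostatic HEC. Of 9 genes of caveolae, 1 lay 2 or more above BEC (Prkcdbp, a caveolar coat protein, at 3.77) and 1 below (Sdpr, another), and of 7 flow-responsive and anticoagulant genes 3 lay above and 2 below. Of 6 Ly6 genes, Ly6i lay above at 3.20 and Ly6c1 and Gpihbp1 below. The 12 cycling inflamed cells made up 18.8% of the group (exact 95% interval 10.1 to 30.5%), against 0 of 32 BEC, which allows up to 10.9%.

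**Figure D5:**
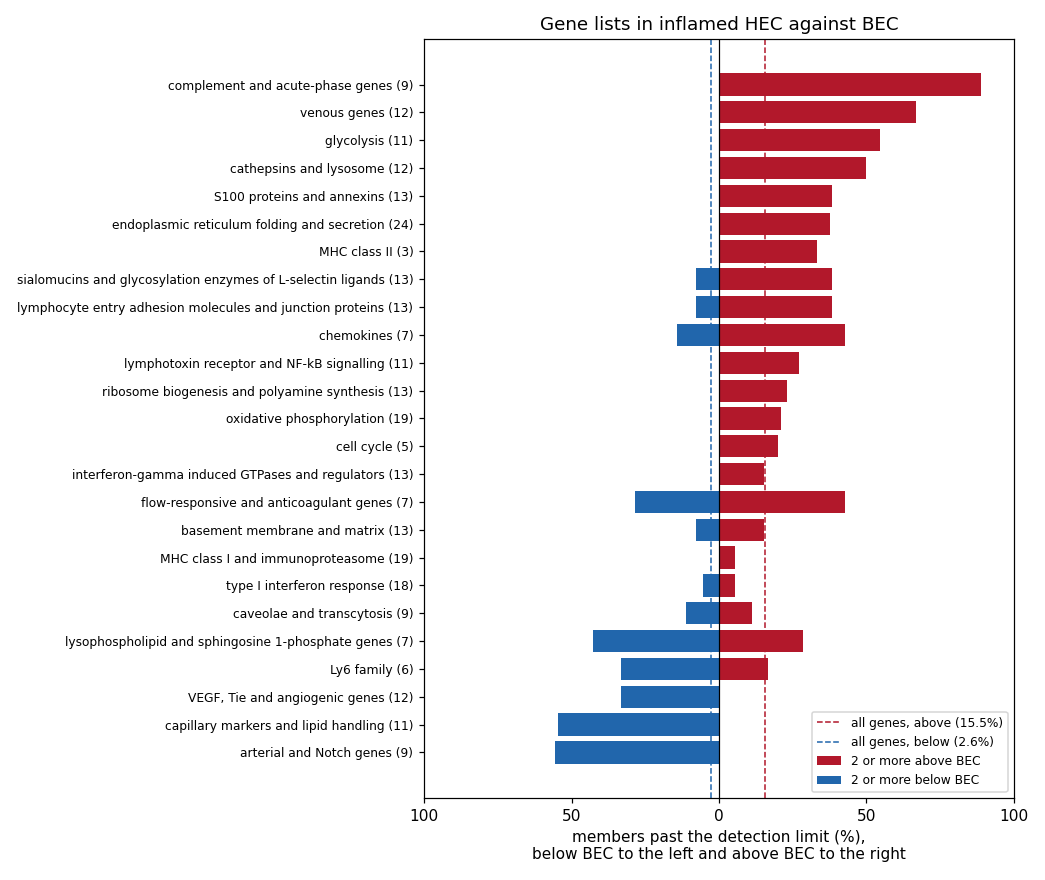
Bars give, for each of 25 gene lists, the percentage of its members past the detection limit (their number in brackets) that lay 2 or more above BEC in inflamed HEC to the right and 2 or more below to the left. Dashed lines mark the shares over all genes, 15.5% above and 2.6% below. Complement and acute-phase genes (8 of 9) and venous genes (8 of 12) reach furthest right, and arterial (5 of 9) and capillary genes (6 of 11) furthest left. Members that did not pass the limit are not counted.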

How the data were processed

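Sorted cells of dissociated lymph nodes were captured with a Fluidigm C1, and Nextera XT libraries were made, per the labels' protocols. The deposited table holds FPKM values made by the authors, with 1 column per cell. CASAVA 1.8, RSEM 1.2.18 and mm10 are named, per the submitters' processing notes, while their roles, the annotation and any cell filter are not given in sources used here.

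Count models do not suit FPKM, and the values were analysed as log2(FPKM + 1). Genes had to be at an FPKM of at least 1 in 50% of a group. Each column is a cell with no animal given, which makes a group 1 sample, without a test. The means, SDs and exact Clopper-Pearson 95% intervals cover counting error over cells only. Amplified reads without molecular identifiers are not independent molecules. Depth was approximated from the step that 1 fragment makes in the FPKM of 2179 genes with 1 transcript and checked on simulated cells. The simulated cells had whole fragments and the same transcript lengths as the estimate. That check thus cannot tell how well the estimate holds for the deposited values. On simulated differences, genes were put in the right class more often where the difference was wide than where it lay near the limit. Doublets were not called. Gene positions come from GENCODE M21 (GRCm38), which held 94.6% of the symbols.

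The text names the 12 genes furthest above and the 12 furthest below BEC, the 10 of each closed or opened class with the widest distance between the HEC groups, and members of 25 gene lists; predicted, ribosomal protein, haemoglobin and small RNA genes were left out. Lgals1, Entpd1, Litaf, Mustn1, Ch25h, Gm2a, Mmp14, Slco3a1, Jak2, Gpc1, Sdc4, Col15a1 and Tubb6 were named after their values were seen, unless a list holds them. The members and lists were chosen with earlier results of these data known. Alternatives changed the pseudocount, the detection limit, the scaling, the mean, the cells kept and the zero. Python 3.11.15, numpy 2.4.6, pandas 2.3.3, scipy 1.17.1 and matplotlib 3.10.9 were used.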

Additional observations from a re-analysis of the deposited data

How the results depend on the processing

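Counts of genes depended on the scale. Beside 554 genes above BEC in inflamed HEC, a pseudocount of 0.1 gave 1126, one of 10 gave 137, size factors 302, arithmetic means 319, 14 matched cells per group 354 and centring on the median gene, an alternative chosen after seeing the data, 209. Beside 93 below, the pseudocount of 10 gave 32, size factors 140, matched cells 283 and centring 195. Persisting genes above numbered 625, 72, 168, 160 and 123 with the pseudocounts of 0.1 and 10, size factors, matched cells and centring, beside 288. Those below numbered 110, 26, 168 and 133 with the pseudocounts, matched cells and centring, beside 72. Genes closed from above numbered 11, 14, 81 and 56 with a pseudocount of 10, arithmetic means, matched cells and odd-numbered cells, beside 31. Those closed from below numbered 24, 2, 13, 56 and 14 with the pseudocounts, arithmetic means, matched cells and odd-numbered cells, beside 8. Size factors and centring each gave 8 as well, but in each only 1 of these was among the first 8. Genes opened above numbered 151, 11, 39, 21, 128 and 32 with the pseudocounts, size factors, arithmetic means, odd-numbered cells and centring, beside 74. Those opened below numbered 11, 2, 11, 49 and 17 with the pseudocounts, arithmetic means, matched cells and centring, beside 6. The genes themselves changed too. In the matched cells 97 genes opened above, and 19 of them were among the 74. Of the genes closed from above, 7 of the 31 recurred there, as did 2 of the 8 closed from below and 2 of the 6 opened below. Persisting genes recurred more often, 124 of the 288 above and 66 of the 72 below. With arithmetic means 108 of the 288 and 58 of the 72 recurred. Of the genes closed from above and below, 3 of the 31 and 0 of the 8 recurred with arithmetic means. Of those opened above and below, 11 of the 74 and 2 of the 6 did. The pseudocount of 0.1 placed 1 gene on opposite sides of BEC, beside 0. The causes were not tested. Among the genes chosen by the rule on distance, none that lay 2 or more from BEC changed sign under any alternative; Litaf, named later, turned from 2.94 to -0.14 with arithmetic means. No paired analysis was possible because the numbers in the titles only name cells.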

Other observations

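Madcam1, the addressin that binds the gut-homing integrin, and Lyve1, a hyaluronan receptor best known from lymphatic endothelium, did not pass the detection limit. Madcam1 reached an FPKM of 1 in 0 of 32 BEC, 5 of 79 homeostatic HEC and 18 of 64 inflamed HEC, with a mean 1.43 above BEC on the log2 scale. Lyve1 did so in 0 of 32, 9 of 79 and 20 of 64, with a mean 1.87 above BEC, while Prox1 was detected in 0 of 64 inflamed HEC.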
